A study of Mus musculus with 4 samples.

Results

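The isoforms of 9 genes of 2 calcium- and lipid-regulated kinase families were examined in the mouse retina, the calcium/calmodulin-dependent protein kinase II genes (CaMKII, Camk2a, Camk2b, Camk2d and Camk2g) and the protein kinase C genes (PKC, Prkca, Prkcb, Prkcd, Prkce and Prkcz). The genes were taken by name, and all 9 were found among the 13452 Ensembl genes counted. They held 32 of the 44325 isoforms listed, 23 of CaMKII and 9 of PKC, with 26881 counts in all. Of the 32 isoforms, 17 carried an Ensembl transcript identifier (annotated) and 15 did not. The authors deposited a model of exon positions for 27 of them, and the other 5 held 134 counts.

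The retinas came from male wild-type mice of the inbred strain C57BL6/J and were dissociated with papain into single cells. There were 4 libraries. A pair had no enrichment, 1 of them from postnatal day 40 and the other with no age given. The third, from postnatal week 8, is labelled CD73 enrichment, although its protocol describes the removal of cells that carry CD73, a surface protein of photoreceptors. The fourth, from postnatal month 4, was enriched for CD90.2, a surface protein of neurons that is abundant on ganglion cells. The 10x Genomics cDNA, which is primed at the 3′ end of the transcript, was read in full length by nanopore sequencing. Counts are given per cell class, for rods, cones, bipolar cells (BC), amacrine cells (AC), retinal ganglion cells (RGC) and Müller glia (MG), with no library named. Each class is therefore 1 sample without replicates, no test between classes was possible, and the class cannot be told apart from the libraries, ages and enrichments behind it. All intervals are exact 95% intervals (Poisson for levels, Clopper-Pearson for shares) and cover counting error only. In pooled sums of this kind, fewer cells of a type and less RNA per cell cannot be told apart.

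Levels are given as counts per 1000000 counts of the class (CPM). The class totals ran from 3509890 counts in ganglion cells to 55437340 in rods, so by these intervals 0 counts allowed a level of up to 0.0665 CPM in rods and 1.05 CPM in ganglion cells. Of 36 class markers, 35 were highest in their own class, with the glial gene Dkk3 as the exception. The ganglion cell column was unlike the others in 2 respects. It held 0 counts of all rod and cone markers, where the other non-rod columns held 137 to 1211 CPM of summed rod markers. After thinning all columns to equal depth, 385 of its 2213 genes with at least 50 counts (17.4%) were represented by a single isoform, against 3.06% to 8.20% in the other 5 classes. Limits for 0 counts in ganglion cells assume counting error alone. Filters per class are not given, so true levels may lie above these limits.

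CaMKII is a multimeric serine/threonine kinase that decodes calcium signals in neurons. Each subunit has a kinase part, a regulatory segment that binds calmodulin, a linker of variable length and an association part that builds the holoenzyme, and most splice variants differ in the linker. PKC enzymes have a regulatory part that restrains a C-terminal kinase part. The conventional forms (alpha, beta) need calcium and diacylglycerol, the delta and epsilon forms need diacylglycerol but not calcium, and the atypical zeta form needs neither. The zeta gene also has an internal start that produces PKMzeta, a kinase without the regulatory part, well known from the brain. In the retina PKCalpha is the classical marker of rod bipolar cells, the bipolar cells that carry rod signals.

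Sequences behind the larger isoform differences are shown first, with the Camk2g 45 nt exon for comparison. In CaMKII these were short exons of the linker, all in multiples of 3 bases, which therefore keep the reading frame. Each is given 5′ to 3′ on the coding strand, from transcripts of GENCODE M21 on mouse build GRCm38, with the exon in capitals and the 10 neighbouring transcript bases on either side in lower case. The first pair belongs to Camk2d on the plus strand, at chr3:126805857-126805916 (60 nt) and chr3:126808208-126808249 (42 nt). The others are the 45 nt exon of Camk2b at chr11:5981070-5981114, the 45 nt exon of Camk2g at chr14:20744604-20744648 and the 114 nt exon of Camk2g at chr14:20741378-20741491, all on the minus strand.
Camk2d 60 nt exon: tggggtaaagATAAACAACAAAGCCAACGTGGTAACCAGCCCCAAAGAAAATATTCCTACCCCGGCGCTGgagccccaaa
Camk2d 42 nt exon: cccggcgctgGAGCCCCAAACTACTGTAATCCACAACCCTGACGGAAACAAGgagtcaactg
Camk2b 45 nt exon: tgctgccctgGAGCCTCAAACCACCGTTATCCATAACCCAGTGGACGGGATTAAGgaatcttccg
Camk2g 45 nt exon: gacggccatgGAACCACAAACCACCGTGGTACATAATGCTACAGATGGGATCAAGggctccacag
Camk2g 114 nt exon: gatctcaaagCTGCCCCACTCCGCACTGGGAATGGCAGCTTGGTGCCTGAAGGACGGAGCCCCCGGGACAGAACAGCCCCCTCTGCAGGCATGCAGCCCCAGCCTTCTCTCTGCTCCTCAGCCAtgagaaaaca

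The Camk2d 42 nt exon and the Camk2b 45 nt exon resembled each other, with 33 identical bases over 45 aligned positions (73.3%). The Camk2g 45 nt exon shared 71.1% with that of Camk2b and 64.4% with that of Camk2d. In these libraries it was held by all 3812 Camk2g counts and so was not a variable exon, whereas its relatives in Camk2b and Camk2d were. The Camk2d 60 nt exon was less like its counterpart, the 69 nt exon of Camk2g, at 52.2%.

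Camk2d encodes the delta subunit. It was highest in rods, at 99.4 CPM (96.7 to 102), followed by cones at 56.4 CPM (51.1 to 62.1). Ganglion cells at 26.5 CPM (21.4 to 32.5) and bipolar cells at 25.3 CPM (23.5 to 27.2) overlapped, as did Müller glia at 17.1 CPM (14.0 to 20.7) and amacrine cells at 15.6 CPM (14.5 to 16.8). The rod level was thus 1.76-fold that of cones, and the intervals of these classes did not overlap. Camk2g encodes the gamma subunit. It was at 41.7 CPM (37.2 to 46.7) in cones and 37.3 CPM (35.7 to 38.9) in rods, which overlapped. Its levels were 20.9 CPM (19.3 to 22.6) in bipolar cells, 18.1 CPM (14.9 to 21.8) in Müller glia and 14.9 CPM (13.9 to 16.1) in amacrine cells, with the glial interval overlapping its neighbours. In ganglion cells Camk2g had 2 counts (0.570 CPM, 0.0690 to 2.06).

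Camk2b, the beta subunit, which binds actin, was low in photoreceptors. It was highest in bipolar cells at 19.6 CPM (18.04 to 21.3) and next in ganglion cells at 13.1 CPM (9.60 to 17.5), a 1.497-fold difference with intervals that did not overlap. Amacrine cells had 3.25 CPM (2.76 to 3.805). Cones, rods and Müller glia had 0.821, 0.685 and 0.652 CPM, from 6, 38 and 4 counts, with overlapping intervals. Camk2a, the alpha subunit, which is the leading CaMKII gene of the forebrain, had 30 counts in all, every one in amacrine cells (0.622 CPM, 0.420 to 0.888). The upper limits for 0 counts were 1.05 CPM in ganglion cells, 0.601 CPM in Müller glia and 0.505 CPM in cones, which overlapped the amacrine interval. Those of bipolar cells (0.127 CPM) and rods (0.0665 CPM) did not. The 30 counts came from 2 unannotated isoforms without a deposited model, so nothing can be said of their structure.

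**Figure D1:**
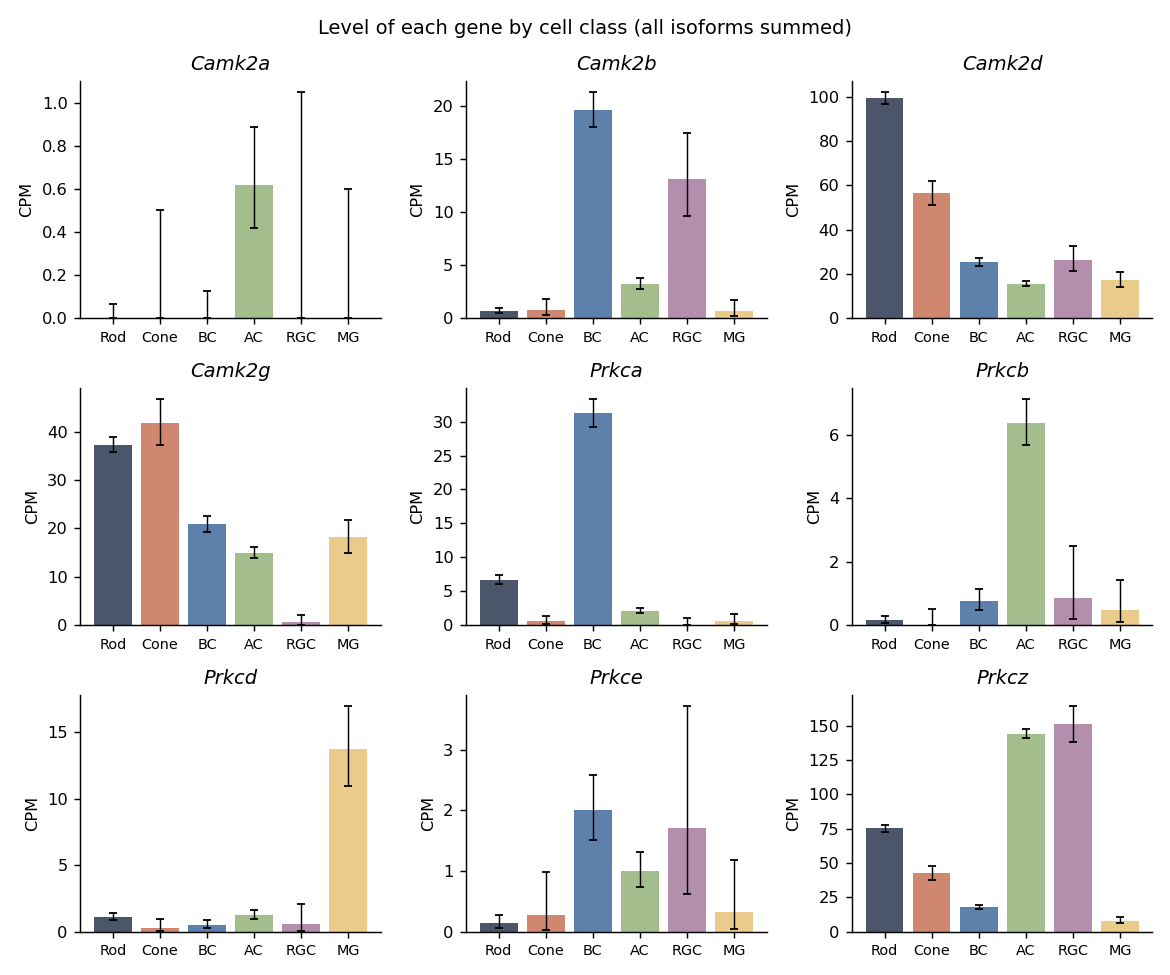
Level of each of the 9 genes in CPM (y axis, linear, a separate scale for each gene) in the 6 cell classes (x axis). Bars are the sum over all isoforms in the single pooled sample of a class and lines are exact Poisson 95% intervals for counting error; Camk2d is highest in rods (99.4 CPM), Prkca in bipolar cells (31.2 CPM), Prkcd in Müller glia (13.7 CPM), and Prkcz in ganglion and amacrine cells (151 and 144 CPM).

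Most of the Camk2d signal did not come from models of the whole kinase. The largest isoform in 5 of the 6 classes was a 5-exon transcript of 982 nt that runs from the Camk2d start to chr3:126767790 and is annotated as a retained intron without a coding sequence (ENSMUST00000149311.7). It shares 66 bases of its last exon with the complete models and continues for 211 bases into the following intron. Its share of Camk2d was largest in rods at 78.5% (4325 of 5508 counts). It took 63.0% of the bipolar cell counts and 59.5% of the cone counts, and about as much in Müller glia (50.5%) as in amacrine cells (49.6%). In ganglion cells it had 0 of 93 counts. Its rod level, 78.0 CPM, compared with 33.5 CPM in cones and 15.9 CPM in bipolar cells. Cones had 43.0% of the rod level of this isoform and bipolar cells 20.4%, while the summed rod markers stood at 4.11% and 1.72% of their rod level in those classes.

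A further short form was an unannotated single-exon model of 2550 nt at chr3:126804719-126807268. It covers the 60 nt linker exon and its flanking introns, with 2490 bases outside all complete models. It made up 25.5% of Camk2d counts in amacrine cells (192 of 754) and 9.41% in bipolar cells, and less in photoreceptors, with 3.64% for cones and 3.45% for rods. Its level was similar in amacrine cells and rods, at 3.98 and 3.43 CPM.

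When only complete models were counted, those that hold the start codon and a stop codon of the full-length annotated transcripts, the order of the classes changed. Complete Camk2d was highest in ganglion cells at 26.5 CPM (21.4 to 32.5), from 93 counts, then 20.8 CPM (17.6 to 24.4) in cones and 17.9 CPM (16.8 to 19.1) in rods. The ganglion cell and cone intervals overlapped, as did those of cones and rods. Müller glia had 8.15 CPM (6.05 to 10.7), bipolar cells 6.96 CPM (6.04 to 7.99) and amacrine cells 3.90 CPM (3.36 to 4.50). Complete models were 18.03% of Camk2d counts in rods and 36.9% in cones. In amacrine and bipolar cells they were 24.9% and 27.6%, and in Müller glia 47.6%. All 93 ganglion cell counts fell on a complete model, in a class where single-isoform genes were frequent.

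Across the family, per kilobase of model, Camk2d made up 80.9% of CaMKII in rods over all models, Camk2g 18.7% and Camk2b 0.384%. With complete models only, this composition turned to 75.2% Camk2g, 23.6% Camk2d and 1.16% Camk2b. Division by length gives short models more weight, and whether counts rise with length here was not tested. Undivided, the rod counts of Camk2d, Camk2g and Camk2b were 5508, 2068 and 38 over all models. They were 993, 2068 and 33 with complete models only. Camk2g also led in cones (74.2%), Müller glia (75.8%), amacrine cells (74.8%) and bipolar cells (56.1%) on this per-kilobase scale. Every Camk2g isoform was complete, so the change came from Camk2d and Camk2b. Bipolar cells had the next largest part from Camk2b (31.5%). Ganglion cells stood apart, with 56.3% Camk2d, 41.8% Camk2b and 1.91% Camk2g. These shares rest on only 93, 46 and 2 counts, in the class where single-isoform genes were frequent.

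The linker of complete Camk2d differed almost completely between classes. Among complete models, the 60 and 42 nt exons were held together or not at all, in the 20-exon isoform ENSMUST00000106402.7, which encodes 512 residues. They were held by 93 of 93 spanning counts in ganglion cells and by 166 of 188 in amacrine cells (88.3%, 82.8 to 92.5). Bipolar cells held them in 0 of 202 counts (at most 1.81%), cones in 0 of 152 (at most 2.40%), Müller glia in 0 of 50 and rods in 3 of 993 (0.302%, 0.0623 to 0.880). Ganglion and amacrine cells were thus high and the other 4 classes at or near 0, and the amacrine interval did not overlap those of rods, cones and bipolar cells. The amacrine level of this isoform, 3.44 CPM, was 12.98% of that of ganglion cells, while the summed ganglion cell markers in amacrine cells were at 2.26% of their ganglion cell level. That sum is mostly Sncg, with 15741 of 16915 CPM in ganglion cells. Single markers ran from Pou4f1 (0.207 CPM in amacrine and 17.9 CPM in ganglion cells) to Nefm (5.72 and 65.5 CPM).

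**Figure D2:**
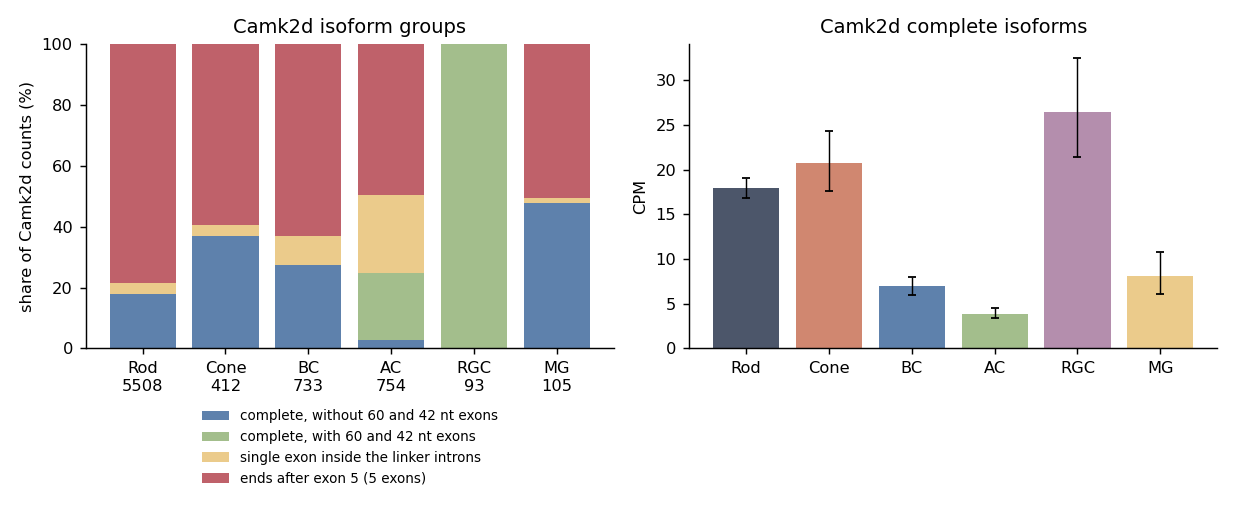
Left, share of all Camk2d counts (y axis, percent) in 4 groups of isoforms for each cell class, with the number of counts under each class; right, level in CPM of complete Camk2d isoforms with exact Poisson 95% intervals. The transcript that ends after exon 5 fills 78.5% of the rod column, and the complete isoforms with the 60 and 42 nt exons appear in amacrine cells and fill the ganglion cell column.

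Other choices within Camk2d also varied. An 89 nt exon near the 3′ end of the coding part, at chr3:126841485-126841573, is not a multiple of 3 and changes the C-terminus, giving 499 residues in place of 478. It was held by 37.9% of complete counts in rods (34.8 to 41.0), 19.3% in bipolar cells (14.1 to 25.4), 19.1% in cones (13.2 to 26.2) and 4.26% in amacrine cells (1.85 to 8.21). Müller glia had it in 13 of 50 counts and ganglion cells in 0 of 93. Rods were highest and amacrine cells lowest, with bipolar cells and cones between them and overlapping. The 89 nt exon and the 60 and 42 nt exons were in no isoform together. A choice between acceptor sites 3 bases apart, giving an exon of 38 or 35 nt, used the 38 nt form in 99.5% of amacrine counts, 87.7% of rod counts, 78.3% of cone counts and 71.8% of bipolar cell counts. In amacrine cells 166 of 188 complete counts were the isoform with the 60 and 42 nt exons. It lacks the 89 nt exon, has the 38 nt form and also held all 93 ganglion cell counts. The other complete isoforms had 13, 8 and 1 amacrine counts, with the 89 nt exon in the 8. The amacrine and ganglion cell values are therefore not separate from the linker difference.

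In Camk2b the variable linker exons were of 75 nt, at chr11:5987057-5987131, and of 45 nt. Of complete Camk2b counts, the 45 nt exon was held by 69.1% in amacrine cells (85 of 123, 60.1 to 77.1) and 46.0% in bipolar cells (159 of 346, 40.6 to 51.4). The 75 nt exon was held by 78.9% in amacrine cells (97 of 123) and 54.9% in bipolar cells (190 of 346). For both exons the amacrine value was the higher and the intervals did not overlap. For the 75 nt exon this depended on the isoforms counted. A stricter set held both neighbouring exons at the same splice sites, which leaves out the 41 nt form of the following exon. There the 75 nt exon was in 97 of 113 amacrine counts (85.8%) and 190 of 212 bipolar cell counts (89.6%). Only isoforms without the 75 nt exon use the 41 nt form. Both shares could therefore only rise, by construction, and no direction is read from them. Classes with fewer counts are given as counts. The 45 nt exon was in 45 of 46 ganglion cell counts and 20 of 33 rod counts, and the 75 nt exon in 33 of 46 and 21 of 33. An acceptor choice between exons of 41 and 38 nt used the longer form in 38.7% of bipolar cell counts (33.6 to 44.1) and 8.13% of amacrine counts (3.97 to 14.4). The 542-residue isoform with both exons, ENSMUST00000109813.8, had 32 of the 46 ganglion cell counts, 62 of 157 amacrine counts and 90 of 569 bipolar cell counts.

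A further Camk2b form lay almost wholly in the bipolar cell column. An unannotated 5-exon model, with a 211 nt first exon at chr11:5976765-5976975 followed by exons of the association part, held 154 of 569 Camk2b counts there (27.1%, 23.5 to 30.9) and was the largest Camk2b isoform of that class. It had 5 counts in rods, at 1.70% of the bipolar cell level where the bipolar markers were at 3.60%, and 0 counts in the other 4 classes. None of its 211 first-exon bases lies in a complete Camk2b model. With complete models only, bipolar cells had 11.9 CPM (10.7 to 13.3) of Camk2b and ganglion cells 13.1 CPM (9.60 to 17.5), and the intervals overlapped. Camk2b isoforms without a model could not be called complete or enter the exon shares. These held 51 and 18 counts in bipolar cells, 17, 15 and 2 in amacrine cells and 0 in ganglion cells. The complete bipolar cell level may therefore be too low.

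Camk2g differed between classes by degree. Its 6 isoforms were all complete and differed in which of 3 linker exons they held. The 114 nt exon was held by 58.2% of Camk2g counts in amacrine cells (54.5 to 61.8) and 57.4% in bipolar cells (53.4 to 61.4). It was lower in cones at 45.2% (39.6 to 51.0), in rods at 33.8% (31.8 to 35.9) and in Müller glia at 23.4% (15.9 to 32.4). Amacrine and bipolar cells overlapped, and cones lay above rods. Each of the isoforms that hold it is unannotated as a whole, although the exon itself is in M21.

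The 69 nt exon of Camk2g, at chr14:20745792-20745860, followed another order. It was in 46.0% of counts in amacrine cells (42.3 to 49.7), 40.2% in rods (38.1 to 42.4), 37.8% in Müller glia (28.8 to 47.5), 27.9% in bipolar cells (24.4 to 31.6) and 26.9% in cones (22.0 to 32.2). The 33 nt exon at chr14:20747819-20747851 was in 14.9% of amacrine counts, 12.8% of cone counts, 6.24% of rod counts, 6.11% of bipolar cell counts and 2.70% of glial counts. The 33 and 69 nt exons were in no isoform together. The 495-residue isoform without any of the 3 exons, ENSMUST00000100837.10, ran from 16.9% in amacrine cells to 48.6% in Müller glia (39.0 to 58.3).

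**Figure D3:**
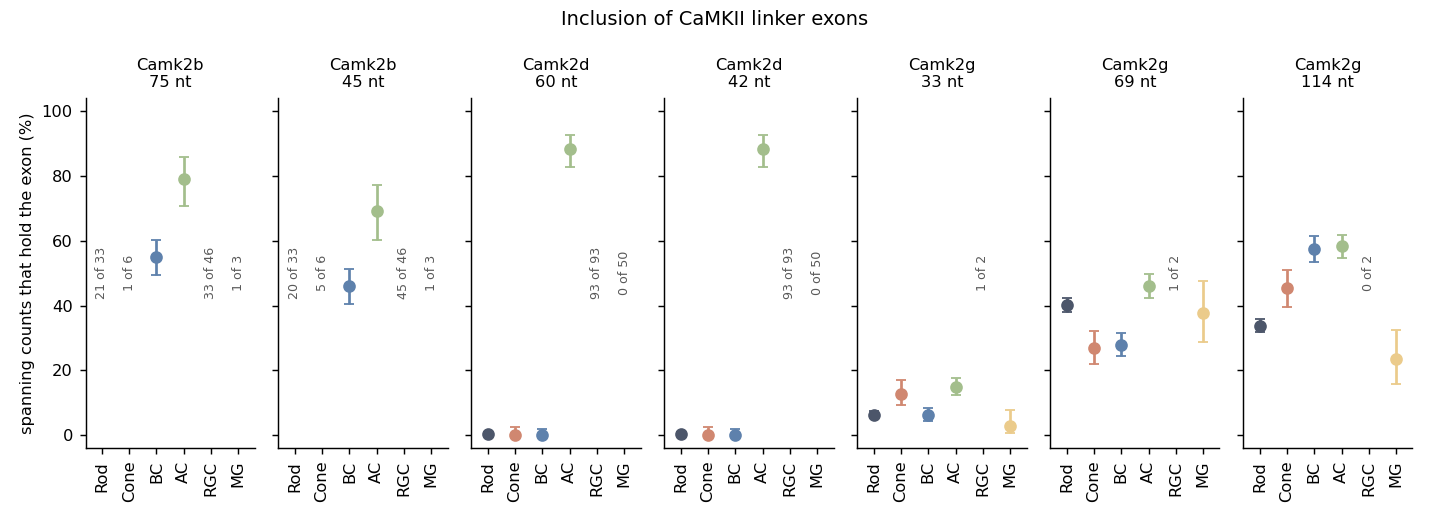
Share of spanning counts that hold each of 7 CaMKII linker exons (y axis, percent) by cell class (x axis), 1 panel per exon. Points with exact Clopper-Pearson 95% intervals are classes with at least 100 spanning counts and printed fractions are classes with fewer; the Camk2d 60 and 42 nt exons are near 0 in rods, cones and bipolar cells and at 88.3% in amacrine cells, while the Camk2g exons differ by smaller steps.

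Among the conventional PKC genes, Prkca was concentrated in bipolar cells. Its levels were 31.2 CPM (29.2 to 33.3) in bipolar cells, 6.67 CPM (6.01 to 7.39) in rods, 2.09 CPM (1.71 to 2.54) in amacrine cells, 0.652 CPM in Müller glia and 0.547 CPM in cones, with 0 counts in ganglion cells. Bipolar cells held 75.8% of the summed CPM and were 4.68-fold above rods. The 4 rod bipolar markers listed, Prkca included, summed to 1862 CPM in bipolar cells and to 5.70 to 127 CPM in the other classes.

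Prkca had 2 annotated isoforms. ENSMUST00000059595.10 has 17 exons and encodes the whole enzyme of 672 residues. ENSMUST00000100302.3 has 7 exons, starts in an exon of its own at chr11:107979411-107979639 and encodes 248 residues of the C-terminal part. None of the 229 bases of that first exon lies in the full-length model, and in the deposited models its last exon runs 1329 bases further in the 3′ direction. In M21 the last exon of the full-length transcript runs further than either, to chr11:107933387. The short form was 32.0% of Prkca counts in bipolar cells (290 of 906, 29.0 to 35.2) and 38.1% in rods (141 of 370, 33.1 to 43.3), which overlapped. In amacrine cells it was 85.1% (86 of 101, 76.7 to 91.4), above both. Full-length Prkca in amacrine cells was accordingly low, at 0.311 CPM against 21.2 CPM in bipolar cells.

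The rod signal of Prkca was larger than that of bipolar markers in the rod column. Full-length Prkca in rods was at 19.5% of its bipolar cell level and the short form at 25.4%, while the summed bipolar markers were at 3.60% of theirs. In amacrine cells full-length Prkca was at 1.46% and the short form at 17.8%, against 0.421% for the bipolar markers. That sum is mostly Pcp2, with 23352 of 23952 CPM in bipolar cells. Single rod bipolar markers varied more. In amacrine and bipolar cells Car8 was at 42.5 and 418 CPM, Vstm2b at 5.74 and 41.9 CPM and Sebox at 7.48 and 1371 CPM. In rods Car8, Vstm2b and Sebox were at 10.1, 1.75 and 66.4 CPM. The part of RNA from other cells in these values was not tested.

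Prkcb, the other conventional gene, was highest in amacrine cells at 6.38 CPM (5.69 to 7.14), from 308 counts, which was 74.0% of its summed CPM. Ganglion cells had 3 counts (0.855 CPM), bipolar cells 22 (0.758 CPM), Müller glia 3, rods 8 and cones 0. All 344 counts belonged to a single isoform, ENSMUST00000064921.4, of 671 residues. The gene has alternative last coding exons, which give PKCbeta its beta I and beta II C-termini. The isoform listed ends in the downstream exon at chr7:122633745-122634402, the beta I form. The upstream exon at chr7:122627656-122628655, of ENSMUST00000064989.11 with 673 residues, was in no listed isoform. Both coding ends are given to show how far they differ, with the last coding exon in capitals up to the stop codon and the 10 shared bases before it in lower case.
Prkcb downstream end, listed: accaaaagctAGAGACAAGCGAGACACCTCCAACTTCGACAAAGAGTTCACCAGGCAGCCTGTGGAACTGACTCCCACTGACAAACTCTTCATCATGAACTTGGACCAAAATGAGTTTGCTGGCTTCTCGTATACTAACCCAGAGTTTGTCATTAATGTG
Prkcb upstream end, not listed: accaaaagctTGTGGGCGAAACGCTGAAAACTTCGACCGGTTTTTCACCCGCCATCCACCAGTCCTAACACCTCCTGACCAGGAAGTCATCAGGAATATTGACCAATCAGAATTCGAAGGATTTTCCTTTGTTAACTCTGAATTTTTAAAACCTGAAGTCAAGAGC

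Of the calcium-independent genes, Prkcd was a gene of the Müller glia column, at 13.7 CPM (10.9 to 16.96), which was 78.5% of its summed CPM and 10.8-fold above amacrine cells. Amacrine cells had 1.26 CPM (0.967 to 1.62) and rods 1.12 CPM (0.857 to 1.43), which overlapped, and ganglion cells, bipolar cells and cones had 0.570, 0.517 and 0.274 CPM. The Müller glia column was also the highest of the 6 in marker sums of microglia (1571 CPM), endothelial cells and pericytes (261 CPM) and astrocytes (111 CPM), with none of the markers found for them at 0, and the part of those cells in the Prkcd level was not tested. The 674-residue isoform ENSMUST00000112210.10 held 82 of the 84 glial counts and 48 of the 61 amacrine counts. An unannotated 16-exon isoform that skips neighbouring exons of 139 and 189 nt had 11 counts in amacrine cells, 1 in rods and 1 in bipolar cells. The skipped pair was therefore present in 50 of 61 amacrine counts and in 84 of 84 glial counts.

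Prkce was low throughout, with 124 counts of the single isoform ENSMUST00000097275.8 (737 residues). It was at 2.00 CPM (1.52 to 2.58) in bipolar cells, 1.71 CPM (0.627 to 3.72) in ganglion cells and 0.995 CPM (0.734 to 1.32) in amacrine cells. Müller glia, cones and rods had 0.326, 0.274 and 0.144 CPM from 2, 2 and 8 counts. The bipolar and ganglion cell intervals overlapped, and bipolar cells lay above amacrine cells.

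Prkcz, the atypical gene, was highest in ganglion and amacrine cells. It reached 151 CPM (138 to 164) in ganglion cells and 144 CPM (141 to 148) in amacrine cells, which overlapped, then 75.2 CPM (73.0 to 77.6) in rods, 42.6 CPM (38.0 to 47.6) in cones, 17.8 CPM (16.3 to 19.4) in bipolar cells and 8.15 CPM (6.05 to 10.7) in Müller glia. Photoreceptors and inner neurons differed in the isoform that gave these levels. ENSMUST00000030922.14 starts in the upstream first exon at chr4:155361152-155361361, has 18 exons and encodes the full PKCzeta of 592 residues. ENSMUST00000103178.10 starts in an internal first exon at chr4:155345450-155345772, has 15 exons and encodes 409 residues, the PKMzeta form. All 323 bases of the internal first exon are absent from the full-length model, so the 2 models differ in sequence as well as in length. With cDNA primed at the 3′ end, shortened reads can look like late starts. Whether the counted reads reached either first exon was not tested.

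The internal start accounted for all 530 Prkcz counts in ganglion cells (99.3 to 100%), 97.8% in amacrine cells (6803 of 6958, 97.4 to 98.1) and 87.4% in bipolar cells (450 of 515, 84.2 to 90.1). In rods it accounted for 4.91% (205 of 4171, 4.28 to 5.62), in cones for 3.22% (10 of 311, 1.55 to 5.83) and in Müller glia for 3 of 50 counts. Inner neurons were thus high, photoreceptors and glia were low, and the intervals of these groups were far apart. In CPM, the internal form was at 151 in ganglion cells, 141 in amacrine cells, 15.5 in bipolar cells, 3.70 in rods, 1.37 in cones and 0.489 in Müller glia. The full-length form was at 71.5 in rods, 41.2 in cones, 7.66 in Müller glia, 3.21 in amacrine cells, 2.24 in bipolar cells and 0 in ganglion cells. Taken by full-length transcripts alone, Prkcz was therefore a gene of photoreceptors, with 56.8% of its summed CPM in rods.

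**Figure D4:**
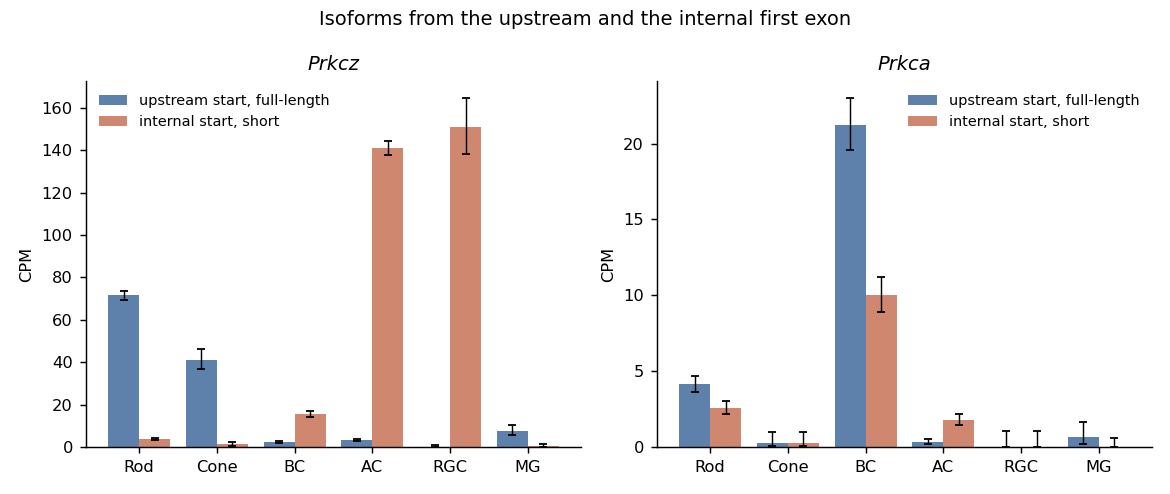
Level in CPM (y axis) of the full-length isoform from the upstream first exon (blue) and of the short isoform from the internal first exon (orange) of Prkcz (left) and Prkca (right) in each cell class, with exact Poisson 95% intervals. For Prkcz the full-length form is high in rods and cones (71.5 and 41.2 CPM) and the short form in amacrine and ganglion cells (141 and 151 CPM); for Prkca both forms are highest in bipolar cells.

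The level of each form outside its highest class was set beside the class markers. Full-length Prkcz in cones was at 57.6% of its rod level, while the rod markers there were at 4.11%. In Müller glia it was at 10.7% against 5.84%, in amacrine cells at 4.49% against 0.659% and in bipolar cells at 3.13% against 1.72%. In ganglion cells both the full-length form and the rod markers were at 0 counts, and in that column a single isoform per gene was frequent. The internal form in rods was at 2.45% of its ganglion cell level, with the ganglion cell markers at 0.684%. Amacrine cells had 93.4% of the ganglion cell level of this form, and the amacrine markers in rods were higher, at 1.92%. The part of RNA from other cells in these values was not tested.

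The bases around each start are shown because the classes divided by start. RefSeq lists starts next to both deposited first exons, and the windows run from 250 bases before to 10 bases after the RefSeq start on build GRCm38.p6, minus strand, at chr4:155361419-155361678 for the upstream and chr4:155345780-155346039 for the internal start. Capitals mark motifs found on either strand among TAATCC (the core of CRX sites), TGCTGA (a site for NRL, the rod transcription factor) and TGACGTCA (the cyclic AMP response element, CRE).
Prkcz upstream start: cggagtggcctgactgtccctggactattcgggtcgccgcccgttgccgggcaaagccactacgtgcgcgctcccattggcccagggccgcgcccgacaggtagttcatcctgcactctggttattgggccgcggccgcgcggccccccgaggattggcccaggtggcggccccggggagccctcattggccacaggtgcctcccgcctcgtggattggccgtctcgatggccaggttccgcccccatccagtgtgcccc
Prkcz internal start: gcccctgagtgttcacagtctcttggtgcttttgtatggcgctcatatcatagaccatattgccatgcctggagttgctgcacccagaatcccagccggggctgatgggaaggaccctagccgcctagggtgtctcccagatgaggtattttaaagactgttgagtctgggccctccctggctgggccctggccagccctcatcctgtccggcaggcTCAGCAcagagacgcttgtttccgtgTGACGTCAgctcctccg

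The upstream window held none of the 3 motifs and was rich in GC (70.8%), with 25 CpG dinucleotides. The internal window was at 58.5% GC with 8 CpG. It contained TGACGTCA from 7 bases before the start, which is seen whole only because the window was extended past the start after the sequence was known, and TCAGCA, the reverse complement of TGCTGA, from 33 bases before it. Among 32851 RefSeq windows of the same length, TGACGTCA was found in 1.67%, TGCTGA in 16.8% and TAATCC in 6.44%. A match describes the letters and not a bound site. A RefSeq start at chr4:155344749 lies at neither deposited first exon.

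**Figure D5:**
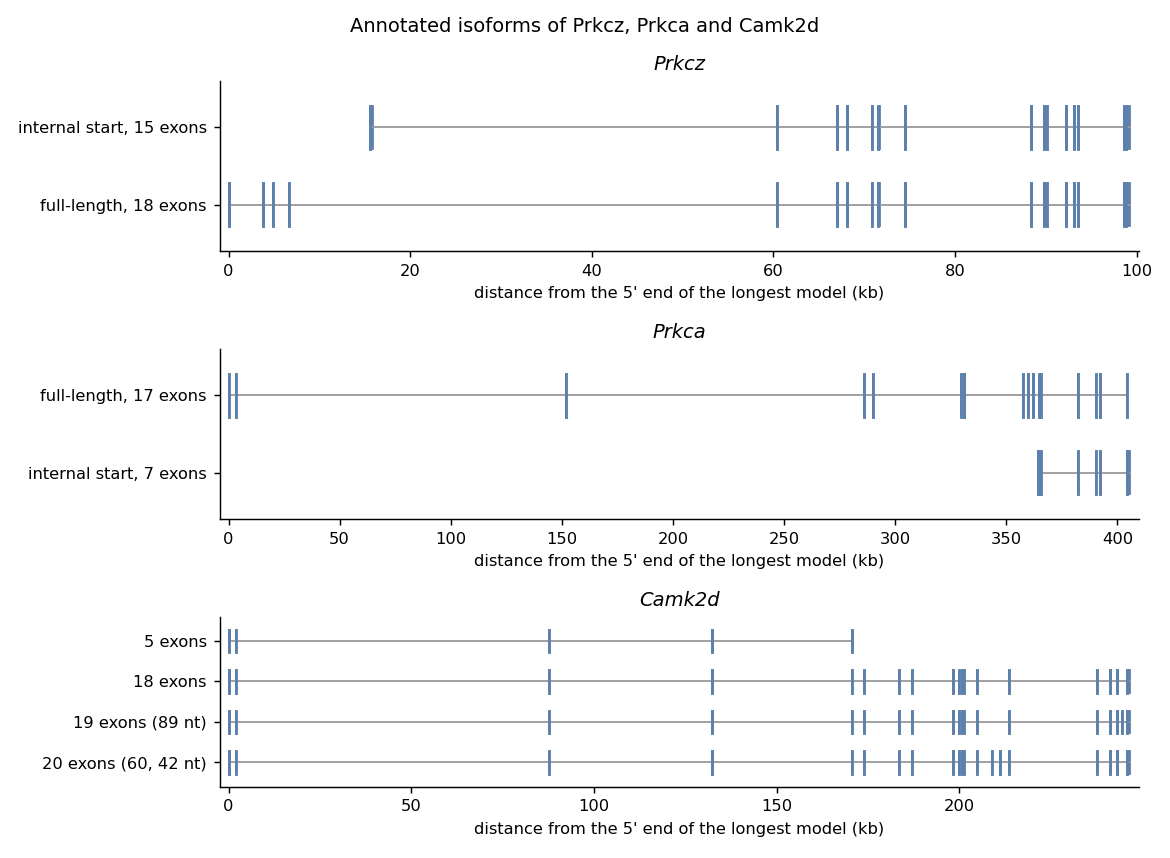
Deposited models of the annotated isoforms of Prkcz, Prkca and Camk2d, drawn 5′ to 3′ against distance from the 5′ end of the longest model (x axis, kb), with exons as bars and introns as lines. The short Prkcz and Prkca isoforms begin inside the gene in exons that the full-length models lack, and the 5-exon Camk2d transcript ends well before the linker exons.

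On the gene level, 4 of the 8 genes with at least 100 counts had at least 50% of their summed CPM in a single class, Camk2b and Prkca in bipolar cells, Prkcb in amacrine cells and Prkcd in Müller glia. Of all 9868 genes with at least 100 counts, 28.2% met this rule. Camk2b met it narrowly, at 51.4%, and at 49.4% did not when only isoforms with at least 2 exons in a model were counted, which left 3 of 8. By class, the rule was met in bipolar cells by 3.59% of genes, in amacrine cells by 5.69% and in Müller glia by 8.05%. With 8 genes, 4 against a background of 28.2% is not read as a property of the families.

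A gene was called switched between classes when the largest isoform differed and its share differed by at least 50 percentage points, with at least 100 counts in each class. By this rule 2 of the 5 genes that could be compared, Prkcz and Prkca, were switched, against 10.3% of 4739 genes with several isoforms. Prkcz was switched in 6 of 10 pairs of classes, those that set amacrine, bipolar or ganglion cells against rods or cones, with differences from 82.5 points (bipolar cells and rods) to 96.8 points (cones and ganglion cells). The share of all genes switched in these pairs was 5.15% between amacrine cells and rods, 4.42% between amacrine cells and cones, 2.05% between bipolar cells and rods, 1.16% between bipolar cells and cones, 5.86% between rods and ganglion cells and 4.94% between cones and ganglion cells. Prkca was switched between amacrine and bipolar cells, by 53.1 points, where 3.66% of genes were. Between amacrine cells and rods Prkca differed by 47.0 points, under the threshold. Camk2d was not called, because the 5-exon transcript was its largest isoform in the 5 classes compared, although its linker exons differed more than those of any other CaMKII gene here.

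In per-kilobase composition over all models, Prkcz made up 94.2% of the 5 PKC genes in amacrine cells, 98.6% in ganglion cells, 90.7% in rods and 97.8% in cones. In bipolar cells Prkca led with 59.2% and Prkcz followed with 36.1%, and in Müller glia Prkcd led with 54.1% before Prkcz with 39.7%. With complete models only, Prkcb led in amacrine cells (51.9%, with Prkcz at 29.5%), Prkca in bipolar cells (81.8%) and Prkcz in rods (93.2%) and cones (98.4%). The internal Prkcz form lacks the upstream start codon, so complete models leave it out by definition. It held 6803 amacrine counts, against 308 of Prkcb. In ganglion cells all 530 Prkcz counts were of this form, so no complete Prkcz was counted there.

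A list of 32 related genes, with other PKC, PKD and CaMK genes, anchors and substrates, showed where partners of these kinases were highest. Counts were found for 28, and 21 had at least 100. Of these 21, 7 were highest in ganglion cells, 5 in amacrine cells, 4 in bipolar cells, 2 each in rods and Müller glia and 1 in cones. Of all 9868 genes with at least 100 counts, 15.0% were highest in ganglion cells, 19.7% in amacrine cells, 13.9% in bipolar cells, 26.1% in rods, 17.02% in Müller glia and 8.29% in cones. The median share of the highest class was 43.3%, beside 37.1% over all genes. Concentration in a single class was found for 5, against the background of 28.2%. In bipolar cells these were Prkd3, a diacylglycerol-binding kinase (79.1%), and Dgki, which removes diacylglycerol (69.4%). In ganglion cells they were Gap43, a growth-cone substrate of PKC (66.8%, 606 CPM), and the nuclear kinase Camk4 (51.6%), and in amacrine cells the PKC substrate Marcks (52.4%). The calcium-independent genes Prkch and Prkcq and the atypical gene Prkci had 49 to 57 counts each.

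The genes with the most similar profiles over the 6 classes were found by Pearson correlation of log2(CPM + 1) among about 5224 genes with at least 1000 counts. These values are descriptive, since only 6 points from shared libraries enter each. Prkcz was closest to Mdp1 (r = 0.991), Rabif (0.991) and Psd (0.990), and Prkca to Serpini1 (0.975), Slc25a27 (0.951) and Eif4b (0.947). Camk2d was closest to Top1mt (0.991), Camk2g to Arv1 (0.995) and Camk2b to Pcp4 (0.980). Prkcb was closest to Nudt6 (0.995), Prkcd to Prdx6 (0.995) and Prkce to Abcc5 (0.978). Camk2a was closest to Rspo4 (0.998), Glra3 (0.997) and Gad1 (0.996). All 30 Camk2a counts were in amacrine cells, so genes confined to that class correlate highly with it by construction. No likeness is read from its values.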

How the data were processed

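The 4 libraries are pooled in the deposited table. Its values are whole-number counts per isoform and cell class, which the authors deposited without normalization. The annotation file the authors deposited names FLAIR as its source, per the file contents, and the genome is mm10 per the submitters' processing notes. The counter, cell typing, collapsing of molecules and filters are not given in the sources used here. Models are given for isoforms with at least 1 rod count. Classes hold 3509890 to 55437340 counts, which sets the precision.

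Counts were summed per gene and scaled to 1000000 per class (CPM), in Python 3.11.15 with pandas 2.3.3 and scipy 1.17.1. An exon's inclusion is the share of counts of models with exons on both of its sides that hold it, and classes under 100 such counts get counts only. Starts and ends were grouped by overlapping first or last exons. Gene models, residues and exon sequences are from GENCODE M21, promoters from RefSeq. Isoforms named in the text hold at least 10% of a gene in a class with 100 counts or are the largest of a class. The Prkcd 16-exon isoform is named outside this rule, chosen after its values were seen. The columns name no library, so the edgeR test planned for library sums was not run. Alternatives were scaling with edgeR 4.0.16 (trimmed mean of M-values) and DESeq2 1.42.0 (median of ratios), both from R 4.3.3, equal depth, other thresholds, annotated isoforms and other groupings. The rules were tested on simulated data. Results for 2 listed genes are not reported here. The genes and lists were chosen with earlier results of these data known. Counting complete models only, and extending the promoter windows by 10 bases after the start, were chosen after seeing the data.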

Additional observations from a re-analysis of the deposited data

How the results depend on the processing

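Of 204 comparisons of a value with its alternatives, 153 stayed within counting error or within 1.5 times for counts, and 51 moved. Changes of direction were not scored. Some values could not move under their alternatives. The start shares of Prkcz and Prkca were fixed, since both isoforms of each gene are annotated with models of several exons. The end of Prkcb was fixed by its single isoform. For Camk2d and Camk2g, M21 structures for isoforms without a model changed nothing, since all their isoforms have models. Such comparisons are among the 153, which is therefore no measure of stability. Members concentrated in a class were 4 of 8, 3 of 8 with at least 2 exons in a model (Camk2b lost, at 49.4%), 2 of 5 at equal depth and 0 of 8 at 80% of summed CPM, and all such genes went from 2787 to 1251 of 5869 and 789. Switched members were 2 of 5, 4 of 6 at a minimum of 20 counts, 1 of 3 at 500 counts (Prkcz) and 4 of 5 at 25 points. All switched genes went from 486 to 1828 of 7317 (25%) at 20 counts, 147 of 2473 at 500, 1021 at 25 points and 259 of 2370 among annotated isoforms. The Camk2b 45 nt exon in amacrine cells rose from 69.1% to 95.4% with annotated isoforms only, and the Camk2g 114 nt exon in amacrine cells and rods went to 0, by construction, since the isoforms that hold it are unannotated. Requiring both neighbouring exons gave 100% for the Camk2d 60 nt exon in amacrine cells and in rods (3 of 3), by construction, since its neighbour is the 42 nt exon. The same requirement moved the Camk2b 75 nt exon from 78.9% to 85.8% in amacrine cells and from 54.9% to 89.6% in bipolar cells. It removed only isoforms without this exon, so both shares could only rise, and no direction is read from them. With complete models only, chosen after seeing the data, the highest class turned from ganglion cells to rods for Prkcz (56.8%), from rods to ganglion cells for Camk2d (31.5%) and from bipolar to ganglion cells for Camk2b (44.4%). For Prkcz this choice leaves out the internal form by definition. For Camk2b it leaves out isoforms without a model, with 51 and 18 bipolar cell counts and 0 ganglion cell counts. The trimmed mean and the median of ratios changed no member's highest class. No paired analysis was possible because a column pools libraries, and no library could be left out. Depth limits ganglion cells most, where Camk2g, Prkcb and Prkcd had 2 or 3 counts.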
